A study of Saccharomyces cerevisiae with 4 samples.

Results

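The comparison set yeast without any Snf2 beside yeast whose Snf2 lacks only its SnAC domain, and described, gene by gene, how far full loss of the protein moved a transcript beyond loss of the domain. For every gene the quantity of interest was the value of the null minus the value of the SnAC deletion. A gene entered if both mutant arrays gave it a value, which left 5790 of 6195 features, 5202 of them named genes and 588 probes without a gene name. Another 241 features had a value in the null alone, 100 in the SnAC deletion alone and 64 in neither.

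Snf2 is the ATPase of SWI/SNF, a complex that uses ATP to slide and evict nucleosomes and so alters access to promoters. It helps activators at some genes and takes part in repression at others, SER3 being a known example of the latter. SnAC (Snf2 ATP coupling) is a conserved stretch between the ATPase domain and the bromodomain of Snf2. A strain that lacks only SnAC can still make a Snf2 protein, whereas the null strain makes none.

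The series holds 4 arrays with 2 colours, 1 per group, on budding yeast grown in rich glucose medium (YPD) at 25 C to an optical density of 0.8. The null, with the whole SNF2 gene deleted in BY4741, was hybridised against wild-type BY4741. The SnAC domain deletion, strain PSY3, was hybridised against its wild type PSY2, which carries Snf2-2FLAG, an epitope-tagged Snf2. Each wild type was also hybridised against itself. The mutants therefore differ in strain background and in reference as well as in the SNF2 allele, and these cannot be told apart in their difference. There was 1 array per group, so no value has a replicate error and no test was possible. Values are the deposited log ratios, read as log2, minus the median of the array. A value of 1 is thus a ratio 2-fold above the typical gene of that array. The medians removed were 0.004 for the null and -0.393 for the SnAC deletion, and without that step every difference would be 0.397 higher.

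SNF2 itself could not be compared. It read -2.14 in the null and -0.19 on the BY4741 array, and neither array made with the tagged strains gave it a value. The deletion of the domain is therefore not checked by these data. Among genes with a value in the null and none in the SnAC deletion, only 3 others were at least 4-fold from the array median. They were the sodium-phosphate symporter gene PHO89 at -2.92, the predicted kinase gene FMP48 at 2.83 and YFL002W-A, named here only by its systematic name, at -2.59. PHO89 read 0.64 and 0.88 on the wild-type arrays, so it also departed from the median there.

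The mutants differed little for most genes. The difference had an SD, estimated from the median absolute deviation, of 0.163 across the 5790 features. The same quantity between the self-hybridised wild types, BY4741 minus Snf2-2FLAG, was 0.221 across 5134 features. The centre of the distribution of mutant differences was thus narrower than that between wild-type arrays, although its tails were longer. The central 99% ran from -0.74 to 0.66 between the mutants and from -0.60 to 0.58 between the wild types. Of all 5790 differences between the mutants, 2721 were above 0 and 3066 below, the background for counts by sign in gene lists. At least 2-fold apart were 18 features, 0.311% of those compared, with 5 higher in the null (0.0864%) and 13 lower (0.225%). Between the wild-type self-hybridisations, 6 features or 0.117% were that far apart. Each of those arrays set a strain against itself, so their difference does not compare expression in the wild-type strains. It also holds no variation between a mutant culture and a wild-type culture. At 1.5-fold the shares lay closer together, at 91 features (1.57%) between the mutants and 56 (1.09%) between the wild types. The split by direction depended on the scaling. Of the 18 features, 27.8% were higher in the null, against 90.5% of 42 without centring, 56.0% of 25 with the wild-type arrays subtracted and 50.0% of 16 with the mutant arrays at a common spread. At 3-fold there were 2 higher features (0.0345%) and 3 lower ones (0.0518%) between the mutants, and 0 in either direction between the wild types.

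**Figure D1:**
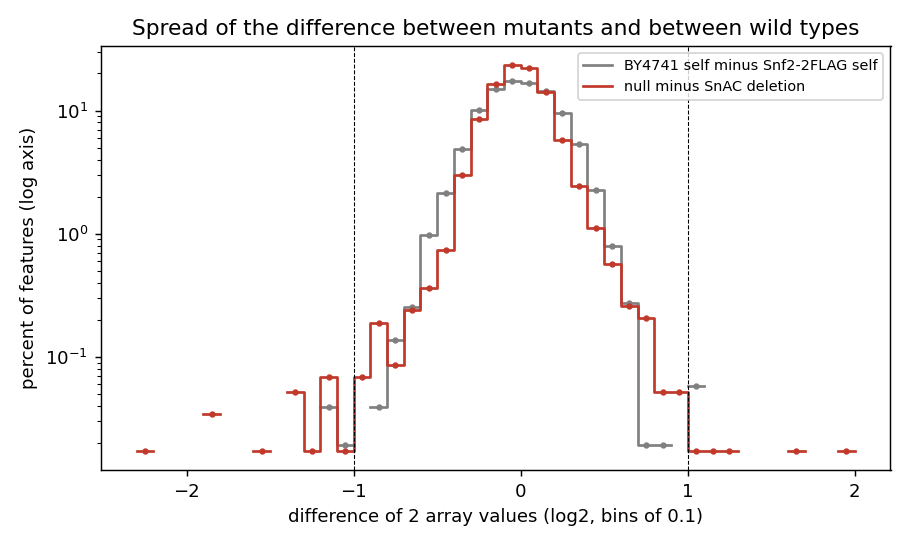
Percent of features (log axis) by difference of 2 array values (log2, bins of 0.1), for null minus SnAC deletion (red, 5790 features) and BY4741 self minus Snf2-2FLAG self (grey, 5134 features). Dashed lines mark 2-fold. The grey curve is wider in the middle, and the red one reaches farther out, from -2.27 to 1.97.

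A second yardstick came from genes with more than 1 probe. Over 27 such genes, the probes of a gene differed in the quantity null minus SnAC by a median of 0.111 and by at most 0.434, for SRB8. Differences above 1 are larger than this disagreement between probes of the same array pair, which does not include variation between cultures.

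Genes that were far from the median in both mutants were farther from it in the null. Over the 131 features whose mean of the mutants was at least 2-fold from the median, a choice that treats both arrays alike, the null was farther out in 109 and the SnAC deletion in 22. The slope of the SnAC deletion on the null was 0.809, with 0.813 for the 53 higher features and 0.806 for the 78 lower ones. Taking instead the features past 2-fold in the null gave 0.792, and those past 2-fold in the SnAC deletion gave 0.839. The array of the null was also wider as a whole, with a robust SD over its features of 0.255 against 0.205, so a general difference in the scale of the arrays moves with this result and its part was not tested.

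Some of the largest shared values are given as examples, and their order depended on that scale. SER3, an enzyme of serine synthesis, read 4.89 in the null and 4.53 with SnAC deleted. PHO11 and PHO12, secreted acid phosphatases nearly identical in sequence, read -5.11 and -4.87 in the null against -4.47 and -4.16. YHB1, the flavohaemoglobin that detoxifies nitric oxide, read -4.61 against -3.82. Of the 5 features lowest by the mean of the mutants, only PHO84, the high-affinity phosphate transporter, was lower in the SnAC deletion, at -4.75 in the null and -4.91 there. With the mutant arrays at a common spread the differences of SER3, PHO11, PHO12 and YHB1 turned sign, to -0.757, 0.461, 0.324 and 0.154, while that of PHO84 kept its sign at 1.375.

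Taken alone, the null was at least 2-fold from the median in 74 higher features (1.28%) and 91 lower ones (1.57%), and the SnAC deletion in 50 (0.864%) and 68 (1.17%). Both mutants passed the mark upward in 42 features and downward in 64. Only the null reached it in 32 higher and 27 lower features, and only the SnAC deletion in 8 higher and 4 lower ones. No feature was past 2-fold in opposite directions. Reaching the mark in a single mutant did not mean a large difference. Of the features past the mark only in the null, 4 of the higher and 4 of the lower differed by at least 2-fold between the mutants, and their median differences were 0.50 and -0.47.

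**Figure D2:**
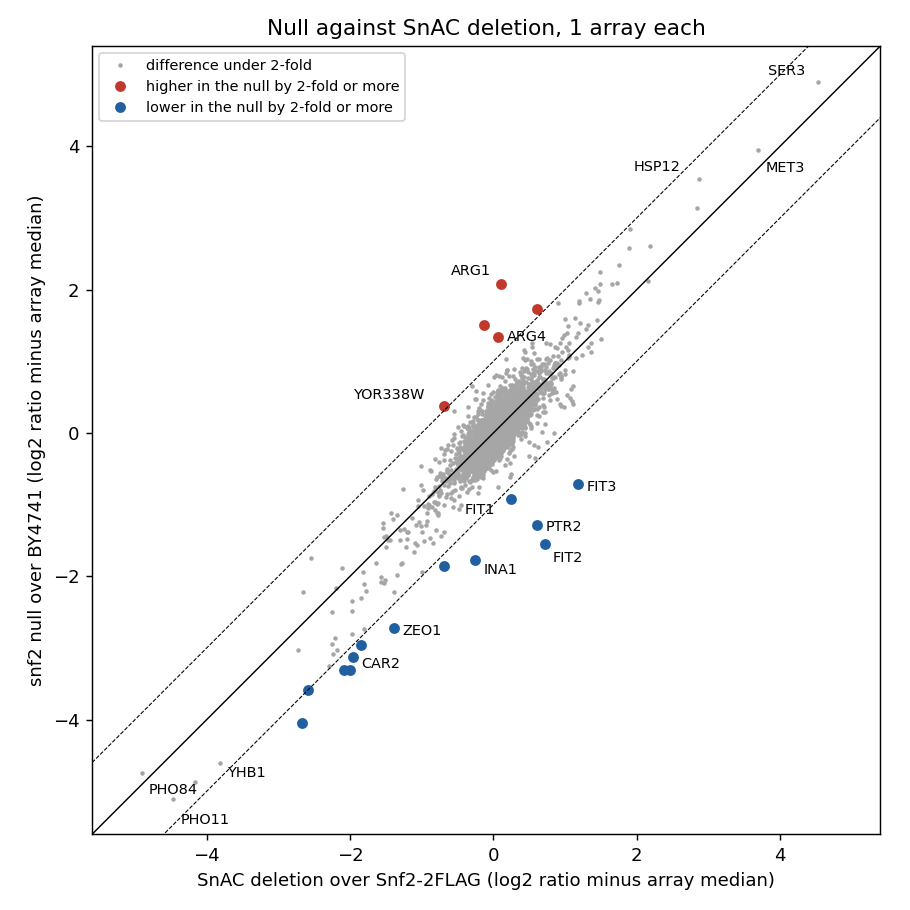
Log2 ratio minus array median of the null over BY4741 (vertical) against the SnAC deletion over Snf2-2FLAG (horizontal), 1 point per feature and 1 array per axis. The solid line marks equal values and the dashed lines 2-fold; ARG1 and ARG4 lie above the band while FIT2, FIT3 and PTR2 lie below it, away from the common diagonal.

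Arginine synthesis genes were higher in the null and near the median in the SnAC deletion. ARG1, argininosuccinate synthetase, read 2.08 in the null and 0.11 without the SnAC domain, against -0.08 for BY4741 and -0.24 for Snf2-2FLAG. The null thus stood alone among the 4 arrays, 3.91-fold above the SnAC deletion, the largest positive difference of all features. ARG4, argininosuccinate lyase, which acts next in the pathway, read 1.34 and 0.07, with -0.14 and -0.36 on the wild-type arrays. ARG4 was 2.42-fold apart. Just inside the mark was ARG7, an acetyltransferase of ornithine synthesis, at 0.66 in the null and -0.30 in cells lacking SnAC.

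Further members of the pathway leaned the same way by smaller amounts. CPA1, a subunit of carbamoyl phosphate synthetase, differed by 0.66, ARG3, ornithine carbamoyltransferase, by 0.47, ARG8 by 0.35 and ARG2 by 0.30. The mitochondrial ornithine carrier ORT1 differed by -0.08. In all, 8 of 10 listed genes were compared and 2 were past 2-fold higher, where 0.0864% of all features were. Their median difference was 0.565, against -0.01 over all features and 0.004 for the same genes between the wild types.

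CAR2, the ornithine aminotransferase of arginine breakdown, had a negative difference. It read -3.12 in the null and -1.96 with SnAC deleted, with -0.49 and -0.24 on the wild-type arrays. Both mutant arrays read far below both wild-type self-hybridisations, and the null was the lower by 2.25-fold. CAR1, arginase, read 0.43 and 0.22, so its difference was positive. The 5 genes of arginine and proline breakdown had a median difference of 0.045, with 3 above 0. Regulators were drawn up after the values were seen. ARG80, ARG81 and ARG82, of the complex that represses synthesis and activates breakdown in the presence of arginine, differed by 0.17, 0.23 and -0.09. Their partner MCM1 differed by -0.27. GCN4, the activator of amino acid synthesis genes, differed by 0.25, and all 5 lay within the central 99% of the wild-type difference.

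Other amino acid pathways were mixed. HOM3, aspartate kinase, read 0.37 in the null and -0.36 without the SnAC domain. ARO3, the first enzyme of the aromatic pathway, read 0.40 and -0.17, while LYS20, homocitrate synthase, read -0.85 and -0.22, the reverse order. Among 7 histidine genes 0 were past 1.5-fold and the median difference was 0.18, with HIS5 at 0.51. HIS4 was low in both mutants, at -1.26 and -1.54. Among 12 branched-chain genes the median was 0.01.

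Iron retention genes read low in the null and high in the SnAC deletion. FIT1, FIT2 and FIT3 encode mannoproteins of the cell wall that hold iron bound to siderophores, the small molecules that carry it. FIT2 read -1.55 in the null and 0.72 in cells lacking SnAC, against -0.52 for BY4741 and 0.08 for Snf2-2FLAG. It was 4.83-fold lower in the null, the largest difference of all features. FIT3, its neighbour on the chromosome, read -0.71 and 1.18, with -0.25 and 0.08 on the wild-type arrays, and was 3.71-fold lower. FIT1, which lies elsewhere, read -0.93 and 0.25, with -0.29 and 0.03, and was 2.26-fold lower. For all 3 genes the null was the lowest of the 4 arrays and the SnAC deletion the highest, and the BY4741 array lay below the Snf2-2FLAG array by 0.59, 0.33 and 0.32 for FIT2, FIT3 and FIT1. With the wild-type arrays subtracted the differences were -1.68, -1.56 and -0.85.

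The other genes of the iron regulon, activated by Aft1 when iron is short, had smaller differences. SIT1, a siderophore transporter, read -2.81 in the null and -1.98 with SnAC deleted, low in both. ARN1 and ENB1, of the same transporter family, read -1.53 and -1.53 in the null against -0.84 and -1.10. ARN2 was as low in the SnAC deletion, at -1.53, as in the null, at -1.45. FET3, the multicopper oxidase of reductive uptake, read -0.17 and 0.56, while its partner permease FTR1 read -0.29 and 0.03, so both lay below the median in the null and above it in the SnAC deletion. The regulators AFT1 and AFT2 differed by 0.03 and 0.12. Over 27 genes compared of 28 listed, 3 were lower by at least 2-fold, where 0.225% of all features were, and 0 higher, and these 3 were the FIT genes. The median difference was -0.11. Between the wild-type arrays the median was -0.17, over the 25 of these genes with values there. With the wild-type arrays subtracted, FET3 differed by -0.268 and ARN1 by -0.345, while SIT1 differed by -0.772.

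Besides FIT2 and FIT3, PTR2 was the only feature at least 1.5-fold from the median in opposite directions in the mutants. It encodes the transporter for small peptides, and read -1.29 in the null and 0.61 without the SnAC domain, against -0.21 for BY4741 and -0.10 for Snf2-2FLAG. The null array read below both wild-type self-hybridisations and the SnAC deletion array above both, and the mutants were 3.72-fold apart. CUP9, the repressor of PTR2, read -0.42 in the null and 0.23 in cells lacking SnAC, so it was on the same side as PTR2 in each mutant. On the wild-type arrays CUP9 read -0.004 for BY4741 and 0.225 for Snf2-2FLAG. Its value in the SnAC deletion was thus close to that of the Snf2-2FLAG self-hybridisation. CUP9 was named after its value was seen. UBR1, the ubiquitin ligase that acts on Cup9 and was likewise named afterwards, read -0.01 and 0.01.

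Among 22 amino acid and peptide permeases PTR2 was alone past 2-fold, and 16 of the 22 differences were below 0 with a median of -0.10. Over all features 3066 of 5790 differences were below 0. DIP5, a permease for glutamate and aspartate, read 0.01 in the null and 0.68 with SnAC deleted. TAT1, which takes up valine, leucine and tyrosine among others, read -1.06 and -0.48.

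**Figure D3:**
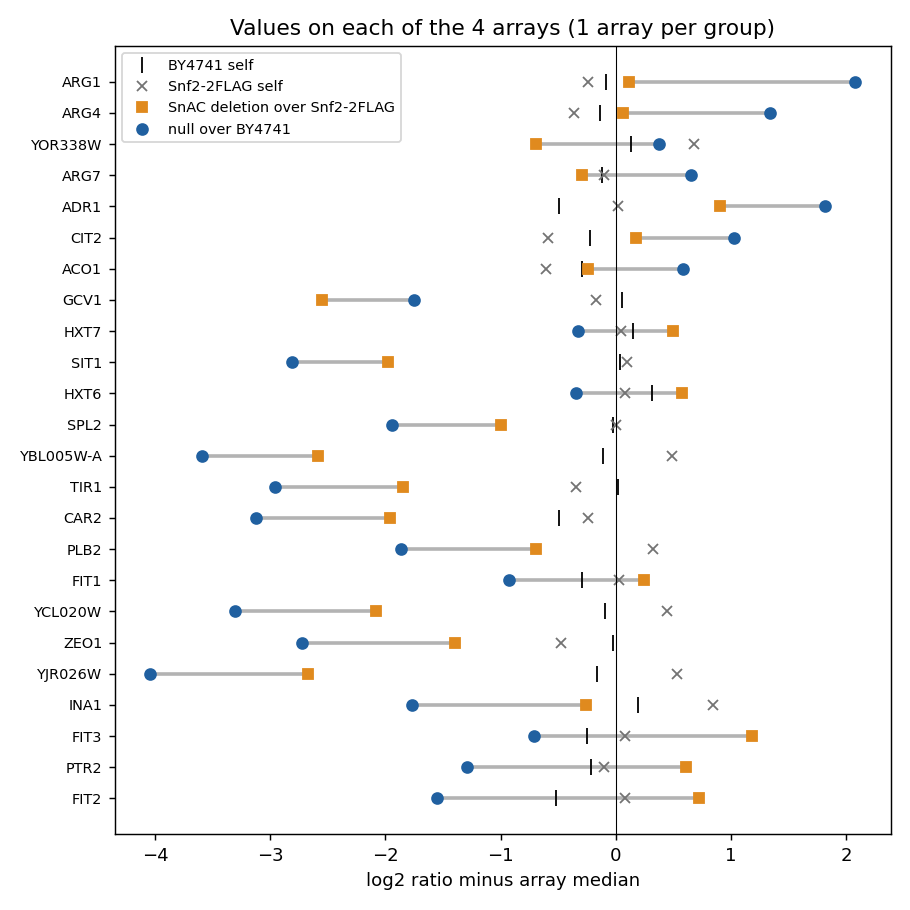
Log2 ratio minus array median on each of the 4 arrays for the 15 named genes at least 2-fold apart between the mutants and 9 further genes, ordered by null minus SnAC deletion; grey bars join the mutants. FIT2, PTR2 and FIT3 have the null left of 0 and the SnAC deletion right of it, whereas CAR2 and TIR1 are low in both.

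Ty reading frames were low in both mutants and lower in the null. Ty1 and Ty2 are retrotransposons whose copies are nearly identical, so their probes count as a single family signal. The reading frames were recognised by systematic name and gene length, because product names were not used here. YJR026W read -4.04 in the null and -2.67 without the SnAC domain, with -0.16 for BY4741 and 0.53 for Snf2-2FLAG. All 7 reading frames compared had a negative difference, from -1.37 to -0.50 with a median of -0.96, and 3 were past 2-fold, with YBL005W-A at -1.003 just beyond the mark and YMR045C at -0.96 just inside it. The wild-type arrays differed in the same direction for these 7 by a median of -0.70. After subtraction of the wild-type arrays the median was -0.18, and with both mutant arrays brought to a common spread it was -0.37. The part of the wild-type arrays in this result was not tested further.

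TIR1, ZEO1, PLB2 and INA1 completed the named genes at least 2-fold lower in the null. TIR1, a mannoprotein of cells in cold or without oxygen, read -2.96 in the null and -1.85 in cells lacking SnAC, with 0.02 and -0.35 on the wild-type arrays. Its relatives TIR2 and TIR4, neighbours on the chromosome, read -0.62 and -0.44 in the null and 0.24 and 0.16 without the SnAC domain, and TIR3 read -1.15 and -0.77. All 4 TIR genes were thus lower in the null, and the list of 26 genes that holds them had a median difference of 0.035. The separate list of 22 cell wall proteins had a median of 0.108 and 0 past 1.5-fold in either direction. ZEO1, a protein of the cell periphery linked to wall integrity signalling, read -2.72 and -1.39, with -0.03 and -0.48. PLB2, a phospholipase B, read -1.86 and -0.69 and had no value on the BY4741 array. INA1 read -1.77 and -0.26, but also 0.20 and 0.84 on the wild-type arrays, and its difference was -0.87 once these were subtracted.

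Besides ARG1 and ARG4, the features at least 2-fold higher in the null were YOR338W and a pair of probes without a gene name. YOR338W read 0.38 in the null and -0.70 with SnAC deleted, with 0.14 and 0.68 on the wild-type arrays, and is named here only by its systematic name. The unnamed probes read 1.51 and 1.73 in the null against -0.13 and 0.61. One unnamed probe was among the 13 lower features, at -3.31 in the null and -1.99 without the SnAC domain.

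Several genes around the TCA cycle were moderately higher in the null. CIT2, the peroxisomal citrate synthase, read 1.03 in the null and 0.17 in cells lacking SnAC. ACO1, aconitase, read 0.59 and -0.24. IDH1 and IDH2, the subunits of the mitochondrial isocitrate dehydrogenase that makes precursor for glutamate, read 1.16 and 0.56 against 0.43 and -0.14. PYC1, a pyruvate carboxylase, read 1.14 and 0.44. CIT2, ACO1, IDH1 and IDH2, with DLD3 and CIT1, belong to the genes under Rtg1 and Rtg3, which respond to the state of mitochondria.

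That list, with PYC1, was drawn up after the values were seen, so its counts follow in part from that choice. All 7 of its members had a positive difference, with a median of 0.701 and 5 of them past 1.5-fold. The share of all features higher by that much, 0.725%, is no yardstick for a list chosen this way. The wild-type arrays differed the same way for 5 of the 6 with values there, PYC1 being the exception, with a median of 0.32. After subtraction of the wild-type arrays only PYC1, at 0.824, stayed past 1.5-fold. CIT2, ACO1, IDH1 and IDH2 then differed by 0.489, 0.517, 0.365 and 0.369. In the full TCA cycle list 4 of 15 genes were past 1.5-fold higher and 0 lower, and the median of 0.19 came to 0.03 after subtraction of the wild-type arrays. The subunit genes of succinate dehydrogenase showed little of it, with SDH3 and SDH4 both at -0.03.

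Some genes for carbon sources other than glucose were higher in the null. ADR1, an activator of genes for ethanol and fatty acid use, read 1.82 in the null and 0.91 with SnAC deleted, with -0.49 and 0.02 on the wild-type arrays. ALD4, the mitochondrial aldehyde dehydrogenase, read 1.81 and 1.20. Of 17 such genes compared, 13 had a positive difference, 3 of them past 1.5-fold, against 0.725% of all features, and the median was 0.23. These 3 were ADR1, ALD4 and CIT2, the last also counted in the list above. With the wild-type arrays subtracted they differed by 1.423, 0.433 and 0.489, so only ADR1 of the 3 stayed past 1.5-fold. Glycolysis genes had 11 of 16 differences below 0, a median of -0.117 and 0 past 1.5-fold. Glucose carriers had 9 of 13 differences below 0. Over all features 2721 of 5790 differences were above 0 and 3066 below. With so few genes, none of these counts by sign is read as a lean of its group. HXT6 and HXT7, adjacent and nearly identical high-affinity transporters whose probes may report on each other, read -0.35 and -0.33 in the null and 0.57 and 0.50 in cells lacking SnAC. HXT3, a low-affinity transporter, read -0.75 and 0.07, although it read 0.54 and 0.54 on the wild-type arrays. These 3 were past 1.5-fold lower, where 0.846% of all features were, and the median over 13 genes was -0.07.

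**Figure D4:**
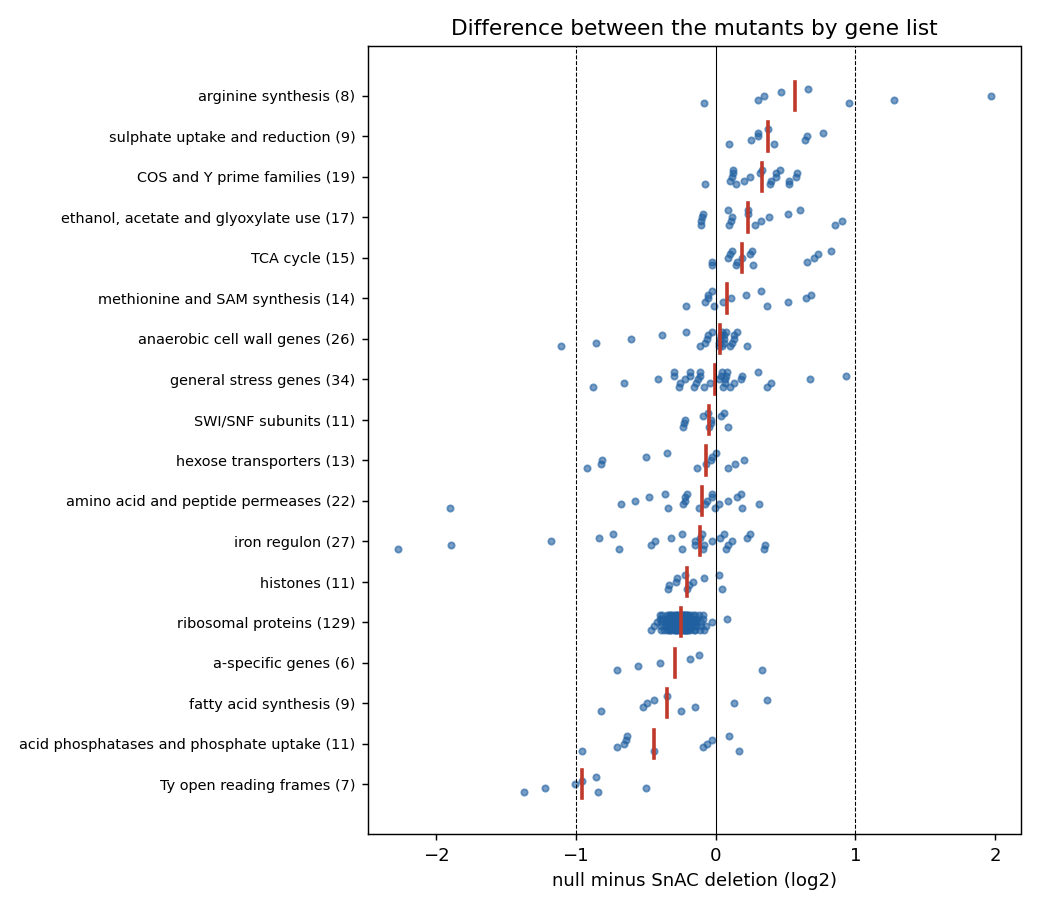
Null minus SnAC deletion (log2) for each compared member (points) of 18 gene lists, with the median of each list as a red bar and the number of members in brackets; dashed lines mark 2-fold. Of the lists drawn, arginine synthesis has the highest median at 0.565 and Ty open reading frames the lowest at -0.96, while the 3 far-left points of the iron regulon are the FIT genes.

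Genes of sulphate uptake and reduction, and phosphate genes, were mostly far from the median in both mutants and mostly farther in the null. All 9 genes of sulphate uptake and reduction were higher in the null, with a median difference of 0.38 and 3 past 1.5-fold, against 0.725% of all features past that mark and 2721 of 5790 above 0. MET10 and MET5, the subunits of sulphite reductase, read 2.25 and 1.95 in the null against 1.49 and 1.29, whereas MET3, ATP sulphurylase, read 3.95 and 3.70. Of 11 phosphate genes 9 were lower in the null, with a median of -0.44, and PHO5, the main secreted phosphatase, read -2.86 against -2.21. SPL2, an inhibitor in phosphate signalling, came closest to the mark at -1.95 against -0.99. When the SnAC deletion was brought to the spread of the null, these medians became 0.01 for sulphate and 0.16 for phosphate, the latter with its sign turned. PHO81 and PHO8 were alike in the mutants, at -1.60 and -1.36 in the null and -1.50 and -1.30 with SnAC deleted.

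GCV1, a subunit of glycine cleavage, went against that trend. It read -1.75 in the null and -2.55 without the SnAC domain, with 0.05 and -0.17 on the wild-type arrays, so the domain deletion was the lower. The companion gene GCV2 read -1.12 and -1.43, and GCV3 read -1.02 and -1.05.

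Stress genes under Msn2 and Msn4 split. Of 34 compared, 17 were higher in the null and 17 lower, with a median of -0.01. HSP12, a membrane-active stress protein, read 3.54 in the null and 2.86 in cells lacking SnAC, while the wild-type arrays read -0.41 and 0.78, a larger difference in the opposite direction. RTS3, a component linked to protein phosphatase 2A, read 2.84 and 1.91, with -0.42 and -0.83 on the wild-type arrays. DDR2 and CTT1, a stress protein and the cytosolic catalase, read -0.13 and 0.44 in the null against 0.75 and 1.10 in the SnAC deletion. For DDR2 the null array read near the wild-type self-hybridisations, at -0.02 and 0.03, and the SnAC deletion array stood alone above them. With the mutant arrays at a common spread, HSP12 and RTS3 differed by -0.03 and 0.46, and DDR2 and CTT1 by -1.07 and -0.93. TSL1 of trehalose synthesis was alike in both mutants, at 2.12 and 2.16.

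Small shifts ran through large gene groups. Of 129 ribosomal protein genes 128 were lower in the null, by a median of 0.25 relative to the array medians, with medians of -0.45 in the null and -0.20 with SnAC deleted. None reached 1.5-fold, and the lowest were RPS22A at -0.46 and RPS20 at -0.44. The wild-type arrays differed the other way for these genes, by 0.21, and without centring the median turned to 0.15. Of 66 mitochondrial ribosomal protein genes 61 were lower, with a median of -0.18, and all 20 subunit genes of RNA polymerases I and III were lower, with a median of -0.21. Histone genes had a median of -0.20. Without centring every difference is 0.397 higher, so all of these medians, the mitochondrial one included, turned positive. Between the wild-type arrays the medians were 0.19 for mitochondrial ribosomal protein genes, 0.23 for histone genes and -0.006 for the polymerase genes.

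The result for fatty acid synthesis changed when the wild-type arrays were brought in. FAS1, a subunit of fatty acid synthase, read -0.58 in the null and 0.25 without the SnAC domain and had no value for BY4741. FAS2, the other subunit, read -0.28 and 0.21 and likewise had no value for BY4741. The median of 9 genes was -0.35, which became 0.01 after subtraction, when only 7 genes had all values. FAS1 and FAS2 were not among those 7, and the loss of genes was not separated from the subtraction.

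Of 6 genes specific to mating type a, 5 were lower in the null and 1 of them was past 1.5-fold. Over all features 3066 of 5790 differences were below 0, and 0.846% were lower by at least 1.5-fold. With 6 genes the count is not read as a lean of the group. MFA1 and MFA2, which encode a-factor, read -1.66 and -1.43 in the null and -1.11 and -0.73 without the SnAC domain, against 0.22 and -0.08 for BY4741 and -0.43 and -0.58 for Snf2-2FLAG. Subtraction of the wild-type arrays widened their differences to -1.20 and -1.20. STE2, the receptor for alpha-factor, read -0.46 and -0.06, and BAR1, the protease that degrades it, read -1.38 and -1.20. AGA2, a subunit of a-agglutinin, differed by -0.12. STE6, the exporter of a-factor, went the other way, at -0.26 in the null and -0.59 without the SnAC domain. The 6 genes had a median of -0.29, which turned to 0.11 without centring.

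The remaining SWI/SNF subunits did not separate the mutants. SWI1, SWI3 and SNF5, core subunits, differed by -0.22, -0.03 and 0.09, and SNF6 by 0.06. All 11 subunit genes compared differed by 0.23 or less in either direction. SUC2, the invertase often used to study SWI/SNF, was at 0.31 and 0.16, and INO1, for inositol synthesis, at -0.15 and 0.03.

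Genes at chromosome ends were slightly higher in the null. The COS and Y prime families, repeated near telomeres and similar enough to share signal, had 18 of 19 members higher in the null, with a median of 0.33 and medians of 0.46 and 0.10 in the null and the SnAC deletion. COS8 read 0.80 and 0.21, and COS5 read 0.54 and -0.03. When genes were ordered along each arm by systematic name, the 132 genes among the first 5 from an end had medians of 0.22 in the null and 0.11 in cells lacking SnAC. Their median difference was 0.13, and it was 0.02 for the genes at places 6 to 10 and -0.01 for the 3168 genes from place 81 inward. Without the COS and Y prime families, 115 genes in the outermost group had a median difference of 0.09. The wild-type arrays differed in the opposite direction there, by -0.11.

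**Figure D5:**
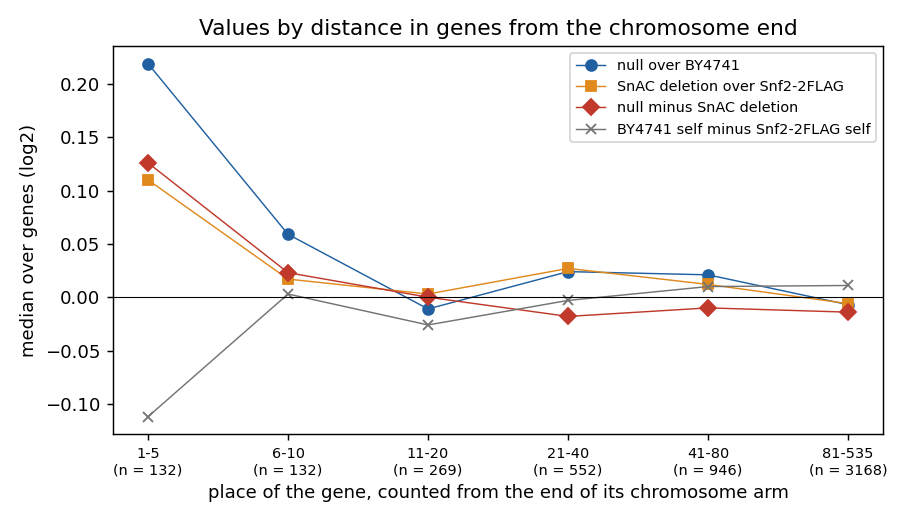
Median over genes (log2) of the null, the SnAC deletion, their difference and the difference between the wild-type arrays, by place of the gene counted from the end of its chromosome arm. Only the outermost group of 132 genes stands apart, with 0.22 in the null and 0.11 with SnAC deleted.

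A set of 7 features was at least 2-fold apart in every one of 3 treatments of the values: relative to the array medians, with the wild-type arrays subtracted, and with the mutant arrays brought to a common spread. ARG1, ARG4, YOR338W and an unnamed probe were higher in the null, and FIT2, FIT3 and PTR2 were lower. Of the other 11 features past 2-fold, 3 stayed so only with the wild-type arrays subtracted (ZEO1, TIR1 and an unnamed probe), 2 only at a common spread (INA1 and FIT1), and 6 in neither, among them PLB2, which had no BY4741 value to subtract.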

How the data were processed

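Per the labels, yeast RNA was extracted with hot phenol, poly(A) RNA was purified, and Cy3 and Cy5 were coupled to cDNA. RNA of the strain in the title was in channel 1 and that of the matching wild type in channel 2, and 2 scans of opposite dye are named per sample. The deposited values were read as log2 ratios of channel 1 over channel 2. The base, the background correction, the centring and the way scans were combined are not given in the sources used here. The deposited medians were 0.004 for the null, -0.393 for the SnAC deletion, -0.125 for BY4741 and 0.104 for Snf2-2FLAG. The number of arrays limits the precision.

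Each column was centred on its median over probes. Probes of a gene were then averaged. Of 6226 probes, 5578 had 1 gene name in the platform annotation, 0 had several and 648 had none, and 5573 matched the R64 gene table, used for names and gene order only. Named genes are up to 15 of the highest and up to 15 of the lowest differences past 2-fold, which came to 3 and 12. They also include up to 3 members per list with the largest difference, and all SWI/SNF subunits. The 5 highest and 5 lowest by the mean of the mutants are named too. So are genes at least 4-fold from the median in the null without a SnAC value. Further members of lists, and genes said to be chosen afterwards, were added for context. The comparison, its 56 lists and its thresholds were chosen with earlier results of these data known, and 2 lists were drawn up after the values were seen. Ty reading frames were found by name and length. The procedure was tested on simulated data. Motif counts in promoters were planned and not run, because no sequence was used here. Calculations used Python 3.11.15, numpy 2.4.6 and pandas 2.3.3, with matplotlib 3.10.9 for plots.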

Additional observations from a re-analysis of the deposited data

Results flagged for a closer look

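The mutants lay on opposite sides of their array medians, each by at least 1.5-fold, for 3 features. FIT2, for retention of siderophore iron, differed by -2.27 between the null and the SnAC deletion. PTR2, the peptide transporter, differed by -1.90, and FIT3, the neighbour of FIT2, by -1.89. With 1 array per mutant these differences were not tested.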

How the results depend on the processing

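The counts of features at least 2-fold apart, 5 higher and 13 lower in the null, depended on the scaling. Without centring they were 38 and 4. With the wild-type arrays subtracted they were 14 and 11, and with the mutant arrays at a common spread 8 and 8. They were 42 and 49 at 1.5-fold and 2 and 3 at 3-fold, and without unnamed probes 3 and 12. Leaving out Ty reading frames, added after the data were seen, gave 5 and 10. Single probes and features with all 4 values kept both counts within 1.5 times. The bound from the wild-type arrays, -0.595 to 0.58, lies inside the 2-fold mark. It could remove no feature, so the unchanged counts there are no check. Of the 15 named genes past 2-fold, 7 stayed past it without centring, 8 after subtraction and 8 at a common spread. None with a value changed sign under these 3 settings. Without centring none could, because each was past 2-fold and that setting only adds 0.397. Lists with a median above 0 numbered 24 of 56, and 54 without centring. Of list medians of at least 0.2 in size, 6 turned positive without centring: polyphosphate synthesis (0.197), a-specific genes (0.11), ribosomal proteins (0.15), RNA polymerases I and III (0.19), histones (0.195) and fatty acid synthesis (0.048). Phosphate genes (0.16) and polyphosphate synthesis (0.12) turned at a common spread, and fatty acid synthesis (0.008) after subtraction, where FAS1 and FAS2 had no value. The cause was not tested, except that removing the centring adds 0.397 to every difference. The slope of the SnAC deletion on the null stayed between 0.792 and 0.839 over the choices of features. The scaling of the arrays was not varied for it, so this range does not show how the slope depends on that scaling. The ratio of the robust spreads, null to SnAC deletion, was 1.246. No paired analysis was possible because each group had 1 sample, and no signal intensity was used here to show which ratios rest on dim spots.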
